A study of Mus musculus with 8 samples.

Results

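The forkhead (Fox) genes encode the transcription factors that bind DNA through a forkhead, or winged helix, domain. Members were taken by symbol, as genes named Fox followed by a subfamily letter and a number, which gave 43 of the 27036 genes in the count table. They were followed through bulk RNA sequencing of 3 mouse prostates labelled WT, 3 with prostatic intraepithelial neoplasia (PIN), the early lesion in which atypical cells line the ducts, and 2 prostate adenocarcinomas (PCa). PIN and PCa came from mice in which a human androgen receptor transgene (hARtg), placed behind a floxed stop in the Rosa26 locus, was switched on by Cre from the Osr1 gene, so that it acts in cells that express Osr1 and in their descendants. These mice also carried the R26 mTmG reporter (R26 mTmG/hAR:Osr1 Cre/+). The study calls the controls age- and sex-matched wild-type mice in one place and R26 mTmG/+:Osr1 Cre/+ in another, so the controls may share the Cre and the reporter, and the mice were of mixed C57BL/6 and 129S1/SvImJ background. The ages behind the bulk libraries are not given in the sources used here, the lesions were picked under the microscope as mostly atypical or tumor cells, and the hARtg transcript is not analysed here.

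Forkhead factors sort into lettered subfamilies with distinct roles. FOXA proteins are pioneer factors that open closed chromatin, and FOXA1 does so for the androgen receptor in prostate luminal cells. FOXO proteins are kept out of the nucleus when insulin or IGF1 signaling activates AKT, and otherwise switch on genes of cell cycle arrest, stress resistance and catabolism. FOXM1 works with the MuvB complex and B-MYB to turn on the genes of the G2 phase and mitosis. FOXC, FOXF and FOXD proteins act mostly in mesenchyme, FOXJ1 directs motile cilia, FOXI1 directs ionocytes, and FOXP3 defines regulatory T cells.

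Total counts ranged from 21751803 to 29730420 reads per library. Genes entered the test with a depth-scaled count (CPM) above 1 in at least 2 libraries, which kept 14034 genes and 16 of the 43 Fox genes. A level below is a CPM adjusted for library composition (TMM), and each p-value comes from the quasi-likelihood test of edgeR, adjusted by the Benjamini-Hochberg method over all genes tested in that comparison. A gene was called where its absolute log2 fold change was above 1 and its adjusted p-value under 0.05. Each library came from a different animal. The labels place WT 1 in one library number series, WT 2 and WT 3 in another, and all PIN and PCa libraries in a further series, so against WT the lesion cannot be told apart from the series, whereas PCa and PIN share a series. The 2 PCa libraries were less alike (Spearman's rho over genes 0.839) than any pair of WT or PIN libraries (0.923 to 0.983). Both PCa values are therefore given for most Fox genes, while many other genes are given by fold change alone. A fit that leaves out a PCa library has a single tumor. Its spread comes from WT and PIN alone, and its calls rest on that tumor. The summed level of 8 seminal vesicle genes was 15882 CPM in WT 1, 0.680 in WT 2, 0.769 in WT 3, 43.9 to 88.7 in PIN, 3940 in PCa 1 and 883 in PCa 2, so these transcripts were far higher in WT 1 and both PCa libraries than in the rest. The summed level of 8 smooth muscle markers was 2076 to 5005 CPM in WT, 3283 to 6003 in PIN, and 60.0 and 38.8 in PCa. The summed level of 6 luminal epithelial markers was 3378 to 11006 CPM in WT, 4386 to 4759 in PIN, and 5821 and 2952 in PCa. In bulk tissue, fewer cells of a type and less RNA per cell cannot be told apart.

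The Fox genes called in any comparison were Foxc1, Foxm1 and Foxo4, and the 250 bases before the annotated start of each, read from mm9, are shown here because these are the proximal promoters of the genes that rose. Capitals mark CCAAT on either strand, which reads ATTGG where it lies on the opposite strand.

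Foxc1, chr13:31898265-31898514, plus strand: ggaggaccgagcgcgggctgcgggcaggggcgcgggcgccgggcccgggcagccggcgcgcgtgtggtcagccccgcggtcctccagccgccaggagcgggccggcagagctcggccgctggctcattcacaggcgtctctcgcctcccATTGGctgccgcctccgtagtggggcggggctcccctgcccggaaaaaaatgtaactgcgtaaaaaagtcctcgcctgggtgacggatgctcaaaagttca

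Foxm1, chr6:128312735-128312984, plus strand: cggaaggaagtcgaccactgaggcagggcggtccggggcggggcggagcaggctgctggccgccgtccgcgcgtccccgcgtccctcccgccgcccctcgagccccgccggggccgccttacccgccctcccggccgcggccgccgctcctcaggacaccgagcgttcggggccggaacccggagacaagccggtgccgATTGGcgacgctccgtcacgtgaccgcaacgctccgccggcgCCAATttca

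Foxo4, chrX:98449617-98449866, plus strand: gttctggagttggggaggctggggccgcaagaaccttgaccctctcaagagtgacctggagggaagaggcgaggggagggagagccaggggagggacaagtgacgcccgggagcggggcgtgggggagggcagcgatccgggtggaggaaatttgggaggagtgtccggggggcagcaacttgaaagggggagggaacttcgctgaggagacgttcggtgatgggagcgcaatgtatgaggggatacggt

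All 3 windows were rich in G and C, at 70.8% for Foxc1, 76.8% for Foxm1 and 64% for Foxo4, against a median of 53.2% over all gene promoters of that length. The CCAAT box, the element bound by NF-Y, stood in the Foxm1 window at 51 bases upstream on the minus strand and at 9 bases upstream on the plus strand, and in the Foxc1 window at 101 bases upstream on the minus strand. It was found in 34.4% of 27030 promoters and in 16 of the 43 Fox promoters. The GC box GGGCGG matched 5 times in the Foxm1 window and 1 time in the Foxc1 window, and stood in 36.2% of all promoters and in 28 of 43 Fox promoters. Neither the cell cycle element TTTGAA (in 15.4% of promoters and 2 Fox promoters), nor the longer CTTTGAA of TCF and LEF factors that contains it (4.54% and 0), nor the forkhead core TGTTTA (11.6% and 5), nor the androgen receptor half-site AGAACA (14.9% and 2), was found in any of the 3 windows. Both strands were searched. The Foxo4 window held none of the 6 motifs.

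Per length of transcript, in TPM (counts divided by summed exon length and scaled to a common total), Foxa1 was the most abundant Fox gene in 7 of 8 libraries. Its level was 349 ± 54.4 TPM in WT (SD, n = 3) and 336 ± 33.6 TPM in PIN (SD, n = 3), and in PCa it was 413 TPM in the first library and 188 TPM in the second. Foxa1 made up 46.4% to 55.5% of the summed Fox TPM in WT, 47.0% to 50.3% in PIN, 43.7% in PCa 1 and 23.1% in PCa 2. In PCa 2 the highest Fox gene was instead Foxo4, at 217 TPM. Averaged over the 8 libraries, Foxo4 (69.8 TPM), Foxk2 (51.0 TPM), Foxo3 (43.6 TPM) and Foxp4 (33.5 TPM) followed Foxa1. In WT these 4 lay at 33.9 ± 7.20, 58.3 ± 17.1, 34.3 ± 3.80 and 34.7 ± 7.14 TPM (SD, n = 3), so that Foxo4, Foxo3 and Foxp4 did not differ beyond their spread there. Foxc1 climbed in this order, from place 15 or 16 in WT and 14 in PIN to place 5 in PCa 1 and 4 in PCa 2. The summed Fox level was 656 to 738 TPM in WT, 637 to 797 TPM in PIN, 945 TPM in PCa 1 and 815 TPM in PCa 2. TPM was not adjusted for library composition. The TMM factors, which do adjust the CPM levels, were 0.754 to 0.931 in WT and 0.932 to 1.03 in PIN. They were 1.33 and 1.20 in PCa, so the summed TPM does not measure a change between the groups.

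**Figure D1:**
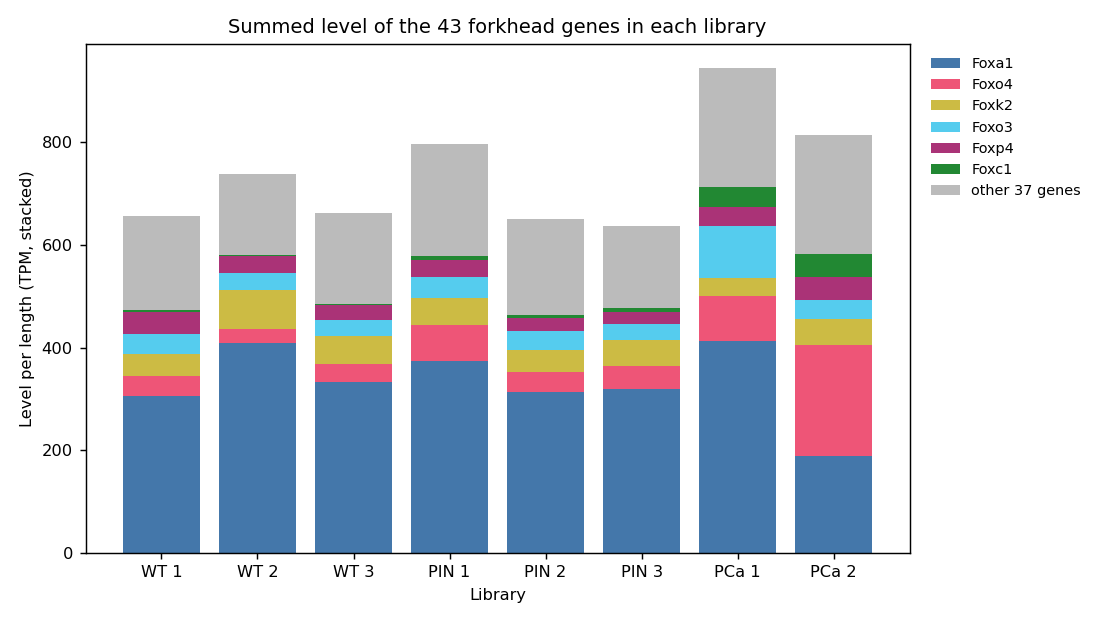
Stacked bars give the level per transcript length (TPM, not adjusted for library composition, linear axis from 0) of the Fox genes in each library. Of these, 6 genes are coloured and the other 37 are summed in gray. Foxa1 fills the largest block in every bar but PCa 2, where Foxo4 at 217 TPM exceeds it, and the Foxc1 block is visible in the PCa bars.

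The tumors held more Foxc1, Foxm1 and Foxo4 transcript than WT prostates did. No Fox gene was called in PIN against WT, where percent called over all genes was 0 and the smallest adjusted p-value of any gene was 0.158. At an unadjusted p-value under 0.05 there were 492 genes, and Foxc1 was the only Fox gene among them. DESeq2 called 39 genes in that comparison, none of them a Fox gene. In PCa against WT, 3 of the 16 tested Fox genes were called, all higher, against 8.54% of all genes called, 4.35% higher and 4.18% lower. This count was 1 without WT 3 or PIN 3, and 2 without WT 1, WT 2 or PIN 2. In PCa against PIN, 2 of 16 were called, Foxc1 and Foxm1, both higher, against 5.72% of all genes called, 2.55% higher and 3.17% lower. That count was 1 without WT 1, WT 3 or any one PIN library. Fits that leave out a PCa library have a single tumor, and without PCa 2 Foxp2 was lower than in WT, at a log2 fold change of -5.90. The median log2 fold change of the 16 was -0.08 in PIN against WT (-0.02 over all genes), -0.06 in PCa against WT (0.01 over all genes) and 0.32 in PCa against PIN (0.07 over all genes). Without WT 2 the first and second of these medians turned to 0.07 and 0.03, and the last became 0.16 without PCa 1, 0.05 without PCa 2 and 0.16 with the replicate number as a block. The 3 comparisons share samples and are not independent of each other.

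Genes were also counted where no library of 1 group reached into the range of the other. In PIN against WT this held for Foxc1 alone among genes that were higher (6.48% of all genes) and for no Fox gene that was lower (6.38%). In PCa against WT it held for Foxc1, Foxm1, Foxo4 and Foxp1 on the higher side, 4 of 16 against 17.7% of all genes, and for Foxj2 and Foxk2 on the lower side, 2 of 16 against 19.6%. In PCa against PIN it held for these same 4 and Foxp4 on the higher side, 5 of 16 against 21.1%, and for Foxj2, Foxn3 and Foxo1 on the lower side, 3 of 16 against 23.2%.

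**Figure D2:**
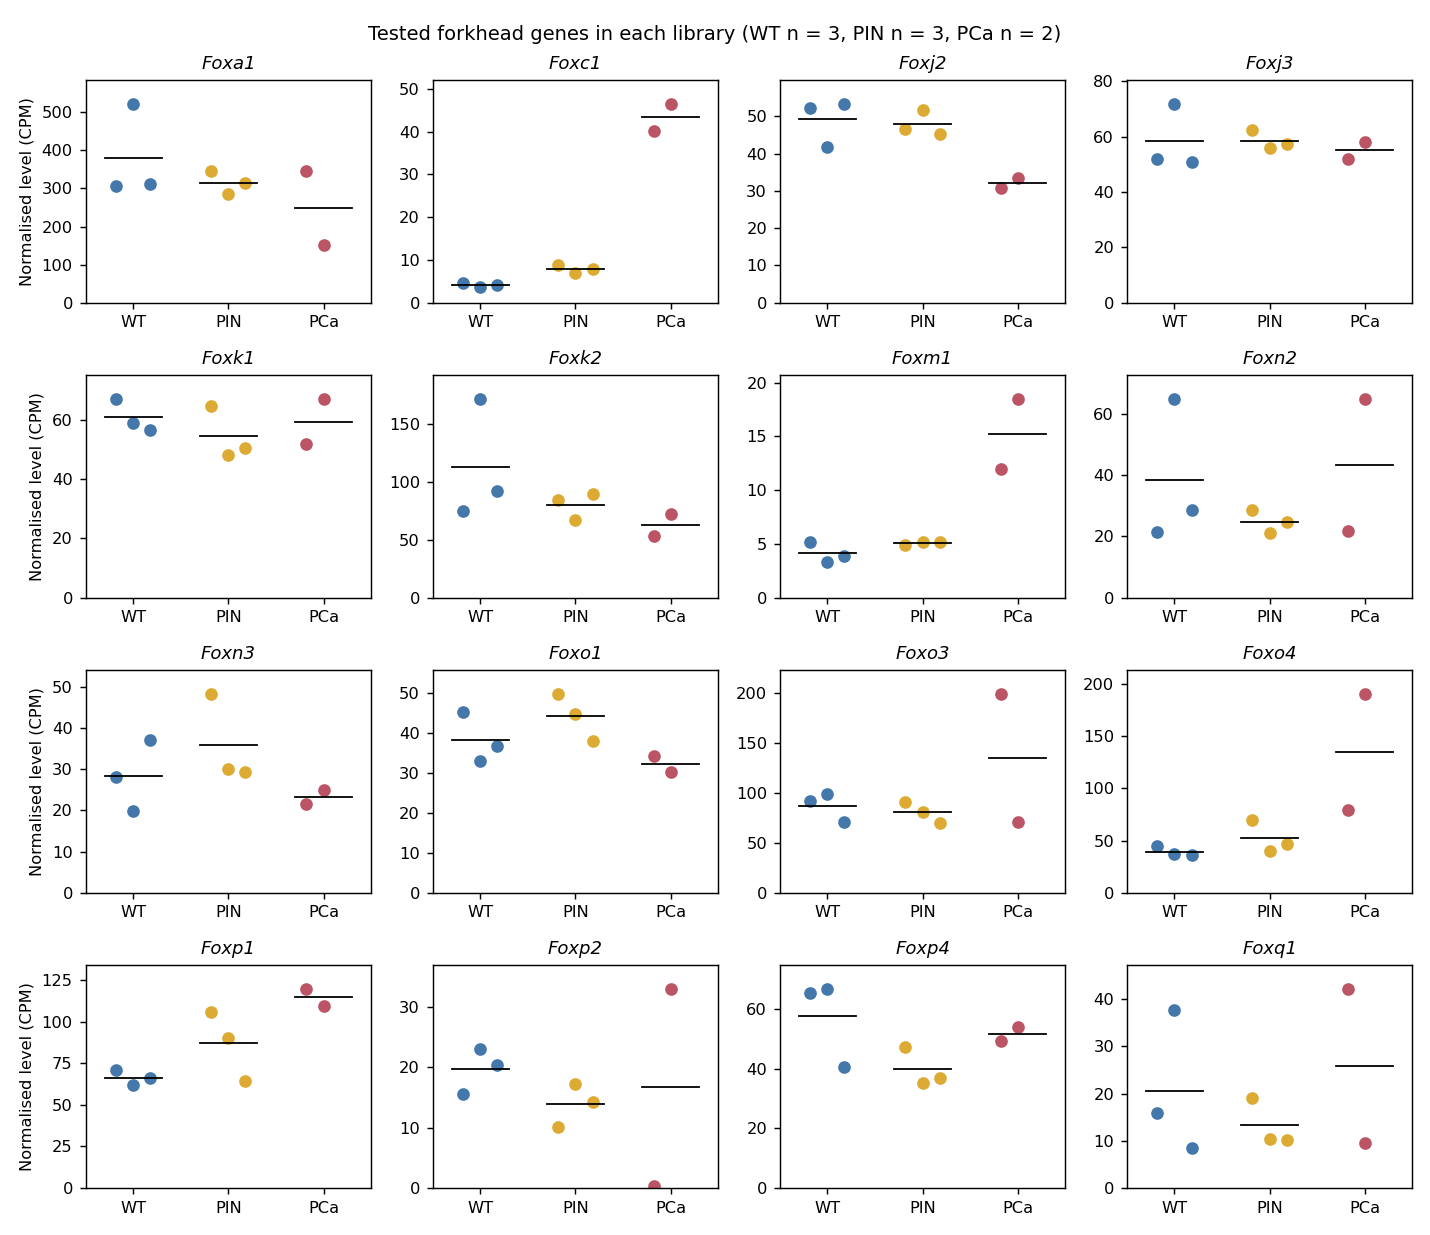
Each panel plots 1 tested Fox gene, with a point for each library (TMM-adjusted CPM, linear axis from 0) and a line at the group mean. The PCa points of Foxc1, Foxm1, Foxo4 and Foxp1 lie above every WT and PIN point, and the PCa points of Foxo3 and Foxp2 lie far apart.

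Foxc1, a factor best known from the mesenchyme of the eye, skull and vessels, rose the most. Its gene lies at chr13:31898515-31902504 on the plus strand of mm9. Its level was 4.55, 3.67 and 4.06 CPM in WT, 8.78, 6.99 and 7.95 CPM in PIN, and 40.3 and 46.6 CPM in PCa. The 3 groups did not overlap, with PIN above WT and PCa above PIN, on 81 to 111 reads in WT, 203 to 244 in PIN, and 1251 and 1359 in PCa. The difference was 10.6-fold in PCa against WT (log2 fold change 3.41 ± 0.24 SE, adjusted p = 0.00325) and 5.49-fold in PCa against PIN (2.46 ± 0.24, adjusted p = 0.00563). In PIN against WT it was 1.93-fold (log2 fold change 0.95 ± 0.22, unadjusted p = 0.00258, adjusted p = 1), which was not called. DESeq2 gave this PIN difference an adjusted p of 0.0165, still with a fold change under the limit, and the adjusted p over all alternatives ran from 0.0165 to 1. Foxc1 was called in both PCa comparisons under all 14 alternatives tried, with log2 fold changes of 3.31 to 3.52 against WT and 2.37 to 2.57 against PIN, and without WT 1 it was 3.49 against WT (adjusted p = 0.00996).

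Foxc1 sits in a cluster with Foxq1 and Foxf2 on the same chromosome, at chr13:31650039-31652839 and chr13:31717685-31723272, and these neighbors showed other patterns. Foxq1, an epithelial factor known from hair and mucin-producing cells, was at 15.8, 37.6 and 8.38 CPM in WT, 19.1, 10.4 and 10.2 CPM in PIN, and 42.2 and 9.53 CPM in PCa, so PCa 1 was high while PCa 2 lay within the WT range. Its log2 fold change in PCa against WT was 0.33 ± 0.76 (adjusted p = 0.815) and turned to -1.10 without PCa 1, and an antisense gene overlaps it, A530084C06Rik, with 13 to 53 reads per library. Foxf2, a factor of the fibroblasts and muscle of gut and gland, had 3 to 11 reads in WT, 3 to 9 in PIN, and 8 and 3 in PCa, too few for a test. Foxc2, the nearest relative of Foxc1 and a factor of lymphatic vessels, lies at chr8:123640071-123642792 and had 17, 9 and 6 reads in WT, 7, 122 and 15 in PIN, and 4 and 4 in PCa, so the tumors held the fewest reads. Its 122 reads in PIN 2 (4.20 CPM) stand apart from all other libraries (at most 0.840 CPM).

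Markers of mesenchymal and vessel cells are given beside Foxc1, and their counts stand against 4.18% of all genes called lower and 4.35% called higher. Of 8 fibroblast markers none was called in PCa against WT (median log2 fold change -0.86), with a summed level of 574 to 1109 CPM in WT, 811 to 1038 in PIN, and 804 and 283 in PCa. The fibroblast median was -0.13 without PCa 2 and -3.13 without PCa 1, so the 2 tumors lay far apart. Of 8 smooth muscle markers 7 were called lower and none higher (median -6.70), with Cnn1, Myh11 and Actg2, which encode contractile proteins, at log2 fold changes of -8.03, -7.82 and -7.06. Of 8 endothelial markers Emcn was called lower (log2 fold change -1.85, in 5 of 14 alternatives) and none higher. Their median was 0.66, and 0.22 to 1.36 when 1 library was left out. The endothelial sums were 71.3 to 129 CPM in WT, 105 to 140 in PIN, and 129 and 169 in PCa. Foxc1 was at 40.3 and 46.6 CPM in the same 2 PCa libraries. The part of cell composition in the Foxc1 difference was not tested.

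Foxm1, the mitotic activator, was higher in both tumors. It lies at chr6:128312985-128325911 on the plus strand. Its level was 5.14, 3.35 and 3.92 CPM in WT, 4.90, 5.17 and 5.20 CPM in PIN, and 12.0 and 18.5 CPM in PCa. WT and PIN overlapped, while both PCa libraries lay above all 6 others. The difference was 3.68-fold in PCa against WT (log2 fold change 1.88 ± 0.34, adjusted p = 0.0201) and 2.99-fold in PCa against PIN (1.58 ± 0.34, adjusted p = 0.0390), and in PIN against WT the log2 fold change was 0.30 ± 0.31. The call against WT held in 10 of 14 alternatives and was lost without WT 3 (adjusted p = 0.0758) and without PIN 3 (0.0525), although the log2 fold change stayed between 1.55 and 2.17 (adjusted p from 2.09e-06 to 0.109). The call against PIN held in 5 of 14 and was lost without WT 1 (adjusted p = 0.0508), WT 3 (0.0771), PIN 1 (0.128), PIN 2 (0.131), PIN 3 (0.159) or PCa 2 (0.0968), with log2 fold changes of 1.26 to 1.88.

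Most listed target genes of FOXM1 were also called higher in PCa, and most of its listed partners were not. Of 24 MuvB and B-MYB partners and G2 and mitosis targets, 17 were called higher and none lower in PCa against WT, against 4.35% of all genes called higher (median log2 fold change 3.06, against 0.01 over all genes), and 14 were called higher and none lower in PCa against PIN, against 2.55% (median 2.32, against 0.07). In PIN against WT none was called, 22 of 24 had a positive log2 fold change, and the median was 0.69 (-0.02 over all genes). The largest called differences in PCa against WT were those of Cdc25c, the phosphatase that starts mitosis (4.45), Nek2, a centrosome kinase (4.36), and Cenpf, a kinetochore protein (4.20). Cenpf was at 3.76, 4.44 and 3.33 CPM in WT, 11.8, 4.20 and 11.7 CPM in PIN, and 67.6 and 73.8 CPM in PCa, with both tumors far above the rest. Of the core subunits of MuvB, Lin37, Lin52, Lin54 and Rbbp4 were not called, at log2 fold changes of -0.22, -0.16, 0.10 and 0.52, whereas Lin9 was called higher at 1.66, in 4 of 14 alternatives. Mybl2, which encodes B-MYB, was not called either (log2 fold change 1.56, adjusted p = 0.0847), at 2.13, 0.997 and 1.68 CPM in WT and 4.15 and 5.28 CPM in PCa. Leaving out 1 library gave 10 to 17 called genes of the list against WT and 0 to 16 against PIN, with 1, 2 and 0 without PIN 1, PIN 2 and PIN 3, 7 without WT 3 and 8 without PCa 2, while the median stayed between 2.92 and 3.31 against WT and between 2.07 and 2.49 against PIN. Without WT 1 the counts were 14 and 12. Earlier results on these libraries were known when the list was drawn up, so its direction is not independent evidence.

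Foxo4, a FOXO factor of the X chromosome, was called higher in PCa against WT and was unequal between the tumors. It lies at chrX:98449867-98456212. Its level was 44.5, 36.7 and 35.9 CPM in WT, 70.2, 39.7 and 46.4 CPM in PIN, and 79.6 and 191 CPM in PCa, so both tumors lay above the highest PIN library, PCa 1 by a small margin. The difference was 3.46-fold in PCa against WT (log2 fold change 1.79 ± 0.39, adjusted p = 0.0334), and in PCa against PIN the log2 fold change was 1.37 ± 0.39 (adjusted p = 0.0835), which was not called. The call against WT held in 6 of 14 alternatives. It was lost without WT 1 (adjusted p = 0.0702), WT 2 (0.0765), WT 3 (0.110), PIN 2 (0.0537), PIN 3 (0.0684) or PCa 2 (0.0923), and without PCa 2 the log2 fold change was 1.04 (range over the alternatives 1.04 to 2.30, adjusted p 0.000607 to 0.122). In PCa against PIN, DESeq2 called it (adjusted p = 0.0152). With a single tumor, its log2 fold change against PIN was 1.89 without PCa 1 and 0.63 without PCa 2.

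With all libraries, neither Foxo1 nor Foxo3 was called in any comparison, and Foxo6 was not tested. Foxo3 was at 92.2, 98.6 and 70.9 CPM in WT, 91.1, 81.0 and 70.2 CPM in PIN, and 199 and 70.7 CPM in PCa. PCa 1 stood above every WT library and PCa 2 just below them. The log2 fold change against WT, 0.63 ± 0.40 (adjusted p = 0.350), became -0.29 without PCa 1 and 1.21 without PCa 2. Foxo1 was at 45.0, 32.9 and 36.7 CPM in WT, 49.7, 44.5 and 37.9 CPM in PIN, and 34.1 and 30.2 CPM in PCa (log2 fold change against PIN -0.45 ± 0.22, adjusted p = 0.280). The tumor with the most Foxo3 was thus not the tumor with the most Foxo4. Foxo6, a FOXO gene known from the brain, had 8, 5 and 9 reads in WT, 3, 5 and 10 in PIN, and 108 and 12 in PCa, and passed 1 CPM in PCa 1 alone (3.48 CPM).

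The genes upstream and downstream of the FOXO factors were counted next. Of 19 receptors, kinases, phosphatases and export factors upstream of FOXO, 2 were called higher and 1 lower in PCa against WT (median log2 fold change -0.10), against 4.35% and 4.18% of all genes. Igf1r, the IGF1 receptor, was at 58.5, 51.2 and 65.2 CPM in WT and at 131 and 125 CPM in PCa (log2 fold change 1.14, adjusted p = 0.0478), a call that held in 2 of 14 alternatives and was lost without any one WT library, PIN 2, PIN 3 or either PCa library. Inpp4b, a lipid phosphatase that limits AKT, was called at a log2 fold change of 6.18, with 203 CPM in PCa 2 against 2.41 CPM in PCa 1 and 0.952 to 1.98 CPM in WT. That call held in 5 of 14 alternatives and was lost without PCa 2 or without any one WT or PIN library. In PCa against PIN 1 of the 19 was called lower and none higher, against 3.17% and 2.55% of all genes. Of 20 tested FOXO targets, 1 was called higher, Sesn1, a stress-response gene (log2 fold change 1.35, adjusted p = 0.0217), and 1 lower, Pik3ip1, which encodes an inhibitor of PI3-kinase (-1.99, adjusted p = 0.0158), in PCa against WT, with a median of -0.01, so that the 2 calls among 20 genes stand against 8.54% of all genes called. The call of Sesn1 held in 9 of 14 alternatives and was lost without WT 1, WT 3 or PIN 3, and that of Pik3ip1 held in 12 and was lost without WT 3. The same 2 genes were called in PCa against PIN, Sesn1 at 1.07 (adjusted p = 0.0490) and Pik3ip1 at -2.15 (adjusted p = 0.0181), calls that held in 4 and 11 of 14 alternatives. Over all genes 2.55% were called higher and 3.17% lower in that comparison. In PIN against WT no gene of either list was called.

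**Figure D3:**
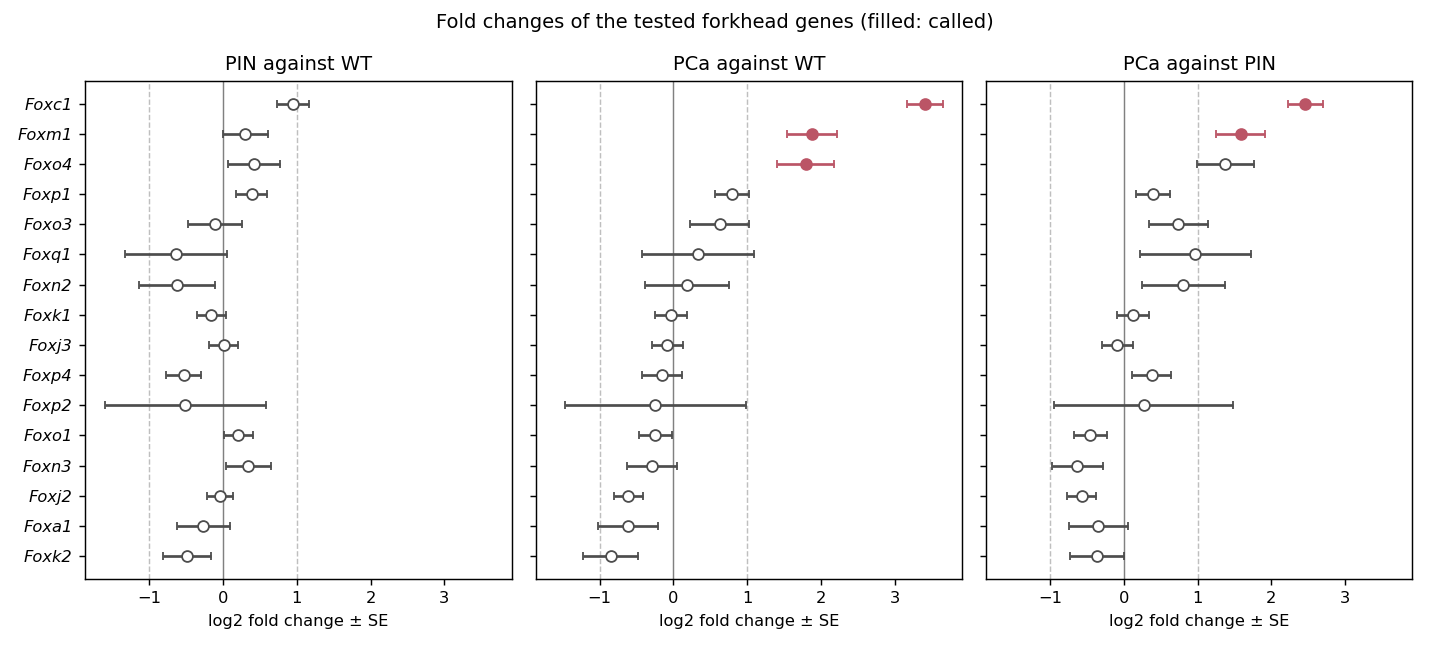
Points give the log2 fold change of each tested Fox gene in the 3 comparisons and bars its standard error, filled where the gene was called, with dashed lines at the fold change limit. Foxc1, Foxm1 and Foxo4 are filled in PCa against WT and Foxc1 and Foxm1 in PCa against PIN, and Foxp2 has the widest bars.

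Foxa1 itself was not called in any comparison. Its level was 306, 523 and 313 CPM in WT, 347, 286 and 314 CPM in PIN, and 345 and 152 CPM in PCa. PCa 1 lay within the WT range and PCa 2 below all other libraries. The log2 fold change in PCa against WT was -0.62 ± 0.41 (adjusted p = 0.372), with -1.32 when PCa 1 was left out and -0.12 when PCa 2 was left out, and neither was called. Foxa2, the endodermal relative found in neuroendocrine prostate cells, had 0, 2 and 0 reads in WT, 5, 0 and 0 in PIN, and 2 and 21 in PCa, and Foxa3, a liver factor, had at most 8 reads, in PCa 2. Of 4 tested neuroendocrine genes 1 was called lower in PCa against WT, Eno2 (log2 fold change -2.68), and none higher, against 4.18% and 4.35% of all genes. That call held in 6 of 14 alternatives and was lost without WT 1, WT 3, PCa 2 or any one PIN library. Insm1 had no read in any library and Scg2 none in PCa, while the summed neuroendocrine list was at 9.43 to 33.5 CPM in WT, 27.0 to 39.5 in PIN, and 10.5 and 9.53 in PCa, of which Ncam1 made up 7.27 and 8.85 CPM.

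Among the partners and targets of FOXA1, genes were called in both directions. Of 16 luminal transcription factors and androgen targets, 1 was called higher and 3 lower in PCa against WT (median log2 fold change -1.52), against 4.35% and 4.18% of all genes, and none higher and 3 lower in PCa against PIN (median -1.09), against 2.55% and 3.17%, with none called in PIN against WT. Without any one PIN library none was called against PIN. The medians lay between -1.52 and -0.62 against WT and between -1.21 and -0.65 against PIN when 1 library was left out. DESeq2 called 4 higher and 7 lower against WT. Pbsn, the androgen-driven secretory gene probasin, was at 6552, 23968 and 12752 CPM in WT, 6690, 12353 and 13097 CPM in PIN, and 8.53 and 60.8 CPM in PCa (log2 fold change -8.70, adjusted p = 0.0123). Tgm4, another secretory gene, had a log2 fold change of -7.81 (adjusted p = 0.0123), and Ehf, an epithelial ETS factor, one of -2.09 (adjusted p = 0.0417). Fkbp5, an androgen-induced chaperone gene, was called higher at 3.07 (adjusted p = 0.0455), with 81.9, 104 and 52.0 CPM in WT, 454, 112 and 241 CPM in PIN, and 1093 and 236 CPM in PCa, so PCa 2 lay within the PIN range. The calls of Pbsn and Tgm4 against WT held in 13 of 14 alternatives, and those of Ehf and Fkbp5 in 5 of 14. The Ehf call was lost without WT 1, WT 3, PCa 2 or any one PIN library, and the Fkbp5 call without PCa 1 or any one WT or PIN library. Of 6 luminal keratin and adhesion markers none was called, and likewise none of 6 basal markers (median log2 fold changes -0.28 and 0.30). The luminal median ran from -0.97 to 0.40 when 1 library was left out. The tumors lay far apart in the basal markers, whose median was 1.28 in the fit without PCa 2 and -4.72 in the fit without PCa 1.

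The FOXP genes are repressors that bind DNA as pairs, and 3 of the 4 were tested. Foxp1 was at 71.3, 62.0 and 66.0 CPM in WT, 106, 90.5 and 64.7 CPM in PIN, and 120 and 110 CPM in PCa, with both tumors above every other library. Its log2 fold change against WT was 0.79 ± 0.23 (adjusted p = 0.0745), under the fold change limit, and 0.39 ± 0.21 in PIN against WT (unadjusted p = 0.102). Foxp2 gave the widest split of any tested Fox gene, at 15.6, 23.1 and 20.4 CPM in WT, 10.1, 17.2 and 14.2 CPM in PIN, and 0.322 CPM in PCa 1 against 33.0 CPM in PCa 2. These are 10 reads in PCa 1 and 961 in PCa 2, below and above all other libraries, and the log2 fold change against WT was -0.24 ± 1.23 (adjusted p = 0.924). Without PCa 1 it was 0.75, and without PCa 2 it was -5.90. Against PIN the log2 fold change was 0.27 (adjusted p = 0.923), with 1.27 without PCa 1 and -5.38 without PCa 2. Each of these fits has a single tumor, so the opposite directions are those of 1 library each. Foxp4 was at 65.5, 66.7 and 40.7 CPM in WT, 47.1, 35.3 and 37.0 CPM in PIN, and 49.3 and 54.0 CPM in PCa, with log2 fold changes of -0.53 ± 0.24 in PIN against WT (unadjusted p = 0.0581) and -0.16 ± 0.27 in PCa against WT (adjusted p = 0.745). Foxp3 had 6, 0 and 1 reads in WT, 0, 3 and 1 in PIN, and 10 and 4 in PCa, and genes on the other strand, Ccdc22 and Ppp1r3f, overlap it with 10 to 38 reads per library. None of 5 tested T cell and regulatory T cell genes was called in any comparison. None of 7 tested leukocyte markers was called either, and their list summed to 64.6 to 149 CPM in WT, 74.6 to 168 in PIN, 417 in PCa 1 and 38.0 in PCa 2. Their median log2 fold change against WT was 1.81 without PCa 2 and -1.42 without PCa 1, so the 2 tumors lay far apart.

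The remaining tested genes, of the FOXJ, FOXK and FOXN subfamilies, were not called in any comparison. Foxk2, a repressor of autophagy genes, was at 75.1, 172 and 91.8 CPM in WT, 84.4, 67.1 and 89.6 CPM in PIN, and 52.9 and 72.0 CPM in PCa, with both tumors below the WT range (log2 fold change -0.85 ± 0.37, adjusted p = 0.189). Narf overlaps it on the same strand with 843 to 2206 reads per library, so reads in the shared stretch are uncertain. Its relative Foxk1 stayed between 48.0 and 67.0 CPM in all 8 libraries. Foxj2 was at 52.3, 41.9 and 53.4 CPM in WT, 46.5, 51.6 and 45.3 CPM in PIN, and 30.9 and 33.5 CPM in PCa, below the rest in both tumors (log2 fold change against WT -0.61 ± 0.20, adjusted p = 0.0940). Foxj3 kept to 50.9 to 71.9 CPM throughout, with an antisense gene, AA415398, of 43 to 122 reads. Foxn3, a repressor in the DNA damage checkpoint, was at 28.1, 19.9 and 37.2 CPM in WT, 48.3, 30.1 and 29.4 CPM in PIN, and 21.5 and 25.0 CPM in PCa. Foxn2 was at 21.4, 65.0 and 28.5 CPM in WT, 28.7, 21.1 and 24.9 CPM in PIN, and 21.9 and 65.0 CPM in PCa, so WT 2 and PCa 2 shared its highest level.

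The 2 tumors can be read gene by gene against the WT range. Of the 16 tested Fox genes, 4 lay above it in both tumors, 2 below it in both, and 3 within it in both (Foxj3, Foxn3 and Foxp4). Foxo3 and Foxp2 lay on opposite sides of it, and 5 genes had 1 tumor within it and 1 outside (Foxa1, Foxk1, Foxn2, Foxo1 and Foxq1). The tumors differed by over 2-fold from each other in 6 genes, Foxa1, Foxn2, Foxo3, Foxo4, Foxp2 and Foxq1.

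**Figure D4:**
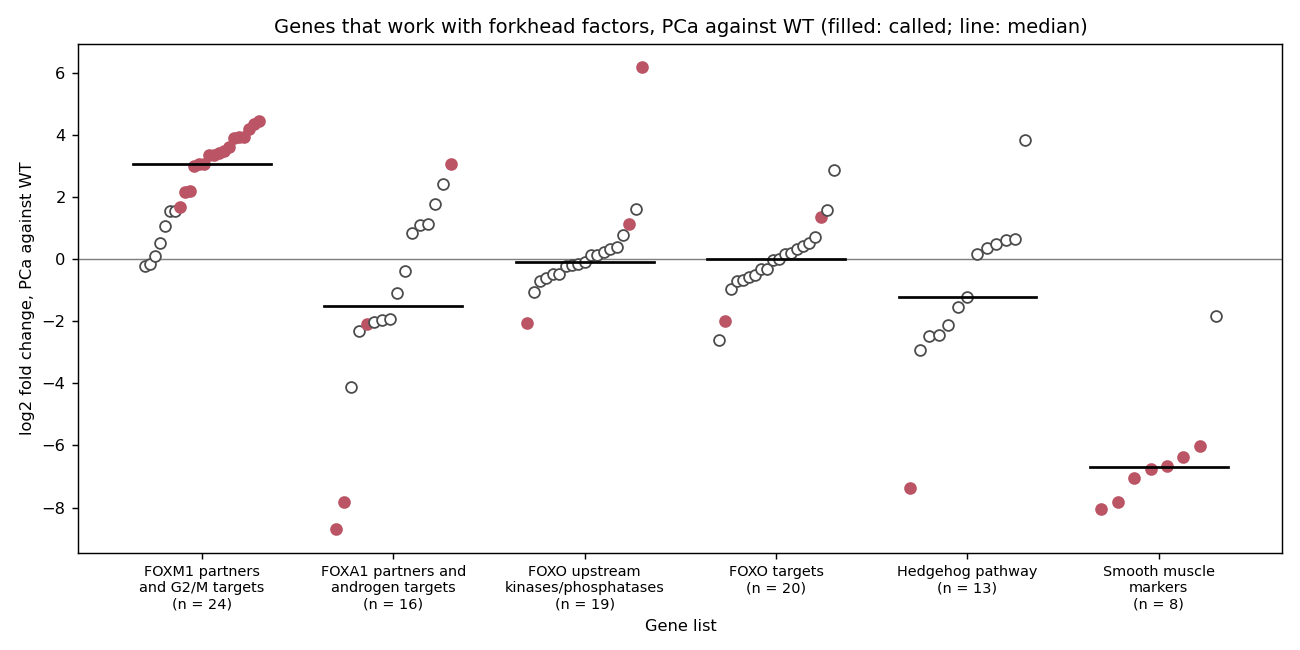
Points give the log2 fold change in PCa against WT of the tested genes of 6 lists, filled where called, with a line at each list's median. The FOXM1 list sits near its median of 3.06 with 17 filled points, the FOXO lists sit near 0, and 7 of 8 smooth muscle markers lie under -6.

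The 27 Fox genes that were not tested were mostly near absent. Of them 4 (Foxb1, Foxb2, Foxe3 and Foxi2) had no read in any library, which allows up to 3 reads per library, or 0.0965 to 0.148 CPM, for counting error alone. Another 7 had 1 to 4 reads over all libraries together (Foxd1, Foxd4, Foxe1, Foxh1, Foxn4, Foxr1 and Foxr2), and 10 had more reads but at most 1 CPM in every library. The last 6, Foxc2, Foxd3, Foxi1, Foxj1, Foxn1 and Foxo6, each passed 1 CPM in a single library, and these were singled out after their values were seen.

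Several of the genes that peaked in 1 library are known from other tissues. PCa 1 held 77 reads of Foxn1 (2.48 CPM), the factor of thymic and hair follicle epithelium, where the other libraries had 0 or 1, and 11 reads of Foxl2, the ovarian factor, where the others had 0 or 1. It also held 63 reads of Foxj1 (2.03 CPM) against 1 to 6 elsewhere. The genes of motile cilia were not called in any comparison (0 of 7 tested). Their summed level was 15.3 CPM in PCa 1, the lowest of all, against 17.2 to 23.8 CPM in WT and PIN. That lowest place rested on Rfx3, a gene of the list, at 3.12 CPM in PCa 1 and 12.3, 11.3 and 9.72 CPM in PIN. Rfx3 was also higher in every WT library than in PCa 1, and without it the sum of PCa 1 would not be the lowest. The sum was 97.9 CPM in PCa 2, of which Hydin, an axonemal protein gene, made up 74.8 CPM, while Foxj1 had 1 read there.

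WT 1 held 90 reads of Foxi1 (4.45 CPM), a factor of ionocytes and of epididymal and kidney acid-secreting cells, against 0 to 14 reads elsewhere, and 26 reads of Foxd3 (1.29 CPM), a neural crest factor, against 0 to 6. WT 1 is also the library with the 15882 CPM of seminal vesicle genes, and the part of that tissue in these reads was not tested. Of the 5 tested ionocyte genes 1 was called lower in PCa against WT, Atp6v1c2, a proton pump subunit (log2 fold change -5.48), and none higher, against 4.18% and 4.35% of all genes. Yet 3 of the 5 had a positive log2 fold change, and the median was 1.15 (-3.25 to 4.14 when 1 library was left out). Atp6v1c2 was at 440 to 669 CPM in WT and PIN, and at 22.5 and 4.08 CPM in PCa. Slc26a4, an anion exchanger of such cells, was at 24.1 CPM in WT 1 and at 0.0453 and 0.146 CPM in WT 2 and WT 3. It was at 1.48, 0.517 and 0.151 CPM in PIN, and 3.99 and 0.171 CPM in PCa. Tfcp2l1, also of that list, was at 51.1 CPM in WT 1, 51.4 in PIN 1 and 259 in PCa 1, and at 5.89 to 12.6 elsewhere. PIN 1 and PIN 3 held 16 and 15 reads of Foxi3, a factor of skin appendages, and PIN 2 none, while PCa 2 had 1 and the other libraries 0.

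**Figure D5:**
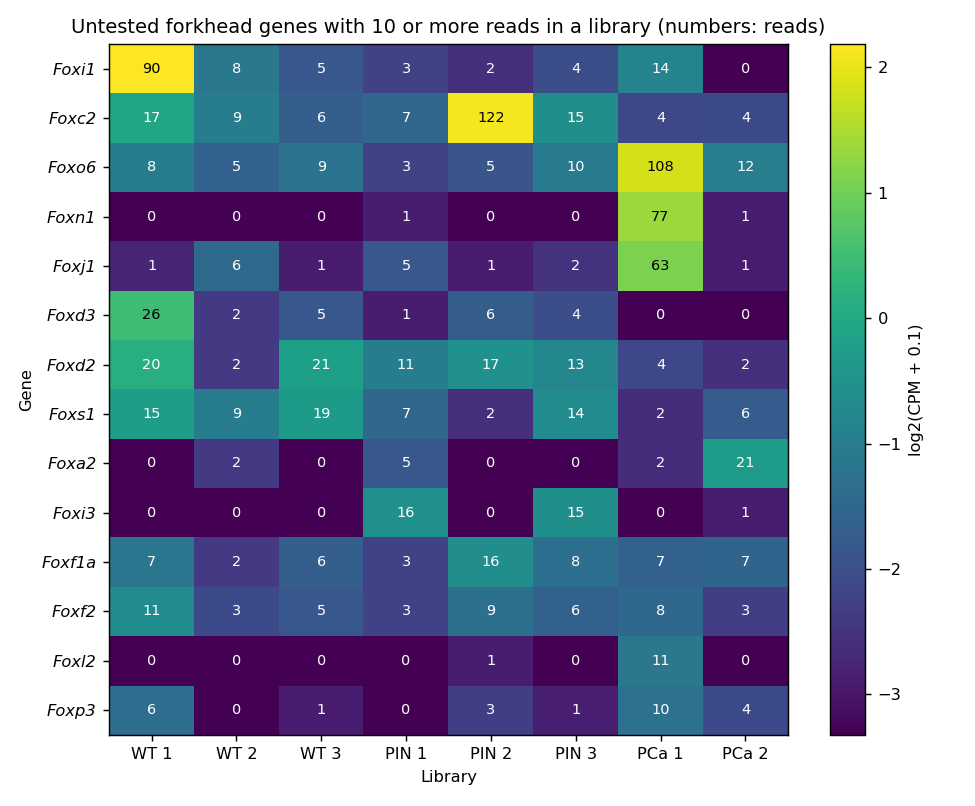
Colors give log2(CPM + 0.1) of the 14 untested Fox genes with 10 or more reads in a library and the printed numbers their reads, by library. The bright cells of Foxi1 in WT 1, Foxc2 in PIN 2 and Foxo6, Foxn1 and Foxj1 in PCa 1 each stand alone in their row.

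The stromal Fox genes gave few reads in every group. Foxf1a, a mesenchymal target of hedgehog signaling, had 7, 2 and 6 reads in WT, 3, 16 and 8 in PIN, and 7 and 7 in PCa, and Foxd2 had 20, 2 and 21 in WT, 11, 17 and 13 in PIN, and 4 and 2 in PCa. Foxs1, known from pericytes, had 15, 9 and 19 reads in WT, 7, 2 and 14 in PIN, and 2 and 6 in PCa. Of 13 tested hedgehog pathway genes 1 was called against both WT and PIN, Hhip, a hedgehog-binding inhibitor (log2 fold changes -7.37 and -8.61), and none was called higher (medians -1.23 and -1.61), where 8.54% and 5.72% of all genes were called. Without PCa 1, a fit with a single tumor, the medians were -2.74 and -3.03. Hhip was at 29.9, 5.94 and 31.8 CPM in WT, 56.2, 26.9 and 77.0 CPM in PIN, and 0.225 and 0.0343 CPM in PCa. The summed smooth muscle markers were also far lower in both tumors, at 60.0 and 38.8 CPM, and their part in the Hhip difference was not tested.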

How the data were processed

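RNA from 3 WT, 3 PIN and 2 PCa mouse prostates was sequenced after ribosomal RNA depletion, with 1 animal behind each library. The authors trimmed adapters with cutadapt 1.9.1, aligned reads to mm9 with HISAT2 2.1.0 and counted them per gene with HTSeq 0.6.1, and the deposited values are raw counts per gene. The strand setting of the counting is not given in the sources used here. The deposited table also gives summed exon length, used for TPM.

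Counts were fitted in R 4.3.3 with edgeR 4.0.16 (TMM, quasi-likelihood test, 1 model of 3 groups and 8 libraries, 5 residual degrees of freedom). The fit was also run on simulated counts. Their spread between replicates was smaller than the common spread of these data, so that run does not give its accuracy here. Alternatives were upper-quartile scaling, DESeq2 1.42.0, other filters, no fold change limit, fits of 2 groups, a replicate block and leaving out each library. Same-numbered libraries come from different animals, so the numbers do not pair them. Their deviations correlated at -0.04 to 0.26 over 7 pairs, with 3 above 0.1. Over the 14 other pairs this was -0.26 to 0.17, also with 3 above 0.1. The deviations of the 2 PCa libraries mirror each other, so these correlations cannot decide on pairing.

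The members and the 16 gene lists were chosen with earlier results of these data known. The Fox genes described with statistics were those called, the 5 with the highest mean TPM, the 3 with the lowest p-value in PIN against WT, and those whose PCa libraries fell on opposite sides of the WT range; the others are given by levels, with statistics for Foxq1, Foxo1 and Foxj2 added after their values were seen. Of each list, called members with the largest change are named, and further genes were added likewise. Some listed genes are not reported here.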

Additional observations from a re-analysis of the deposited data

How the results depend on the processing

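In PCa against WT 3 Fox genes were called, and 1 with a replicate block or with only the 2 groups compared. The count was 1 to 3 when a WT or PIN library was left out. In PCa against PIN 2 were called, and 1 without a filter on low counts, with only the 2 groups compared or with the replicate block. The count was 1 to 2 when a WT or PIN library was left out. The 1 gene called under the replicate block was Foxc1 in both comparisons (adjusted p 0.0172 and 0.0375); the labels share replicate numbers but no animals, so the lost calls of Foxm1 and Foxo4 say nothing about their size. Over all genes, the calls in PCa against WT were 1198 in the reported analysis, 2487 with DESeq2, 413 with the replicate block, 130 with only those 2 groups, and 347 to 2477 when a library was left out. In PCa against PIN they were 803, 1984, 151, 388, and 78 to 2251. DESeq2 called 3 Fox genes in PCa against PIN. In PIN against WT no Fox gene was called under any alternative.

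Over the 16 tested Fox genes and 14 alternatives (also added after seeing the data), the direction turned in 9 of 224 values in PIN against WT (4 genes), 11 in PCa against WT (6 genes) and 8 in PCa against PIN (7 genes). Those against WT include Foxo3 (-0.29) and Foxp2 (0.75) without PCa 1. Foxp2 against PIN turned to -5.38 without PCa 2, a fit with a single tumor. When WT 2 was left out, the median log2 fold change of the 16 tested Fox genes relative to WT also changed sign, to 0.07 for PIN and 0.03 for PCa. Without PCa 2 the log2 fold changes against WT were 1.21 for Foxo3, -5.90 for Foxp2 and 1.04 for Foxo4. Counts over the gene lists under each alternative were added after seeing the data, and for the FOXM1 list gave 13 called genes against WT and 1 against PIN with the replicate block, and 6 and 6 with only the 2 groups compared. With 2 tumors that differ in 6 of 16 Fox genes by over 2-fold, a group mean describes neither tumor for those genes, and the causes of these shifts were not tested.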
